A study of Arabidopsis thaliana with 6 samples.

Results

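Glutathione S-transferases (GSTs) of the tau and phi classes are described here in rosette leaves of the *Arabidopsis thaliana* mutant *fer*. The genes were taken from a list of 32 gene identifiers, 23 of the tau class (GSTU) and 9 of the phi class (GSTF), and 30 of them had values in the deposited table of 20754 genes. GSTU2 (AT2G29480) and GSTF13 (AT3G62760) had none and are not analysed here. The list was set by gene family, without a threshold on any measured value, and it leaves out GSTU13, GSTF9 and GSTF10, which are counted with glucosinolate synthesis, and some further genes of both classes.

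The leaves came from *fer*, meaning *fer-4*, a T-DNA insertion mutant without functional FERONIA (FER), and from wild type (WT) of the accession Col-0. Each genotype gave 3 libraries, described as biological replicates, and *fer* stands for a single mutant allele whose rosettes stay small. The columns of both genotypes are named as untreated. The labels give both genotypes the same growth: 10 days on plates in constant light, then 21 days on soil at 22C with 8 h of light and 16 h of dark, and an age of 4 weeks at harvest. The text of the study gives a longer day and a slightly greater age, which the values cannot settle.

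GSTs join the tripeptide glutathione to reactive, electron-poor molecules such as herbicides, oxidised lipids and some of the plant's own defence compounds. The conjugates are pumped into the vacuole by transporters of the ABCC family and taken apart there, a route opened by the γ-glutamyl transpeptidase GGT4. Tau and phi are the large plant classes of the family, and some of their proteins bind and carry molecules without conjugating them. Many of these genes respond to salicylic acid, oxylipins and xenobiotics, through transcription factors of the TGA group that bind the sequence TGACG, the core of the as-1 element. FER, a receptor kinase at the cell surface, takes part in growth, hormone and immune signalling.

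The upstream sequences of 3 of the genes are shown first, because they hold the motifs that the family is known for and belong to genes that changed in different directions. They are the 300 bases before the annotated gene start, 5′ to 3′ on the gene's own strand, from the RefSeq annotation of TAIR10.1, with TGACG (or its reverse complement CGTCA) and CACGTG in capitals. GSTU1 (chr2:12632539-12632838, minus strand) and GSTU7 (chr2:12618900-12619199, minus strand) were increased in *fer*, and GSTU17 (chr1:3398359-3398658, minus strand) was decreased.
GSTU1: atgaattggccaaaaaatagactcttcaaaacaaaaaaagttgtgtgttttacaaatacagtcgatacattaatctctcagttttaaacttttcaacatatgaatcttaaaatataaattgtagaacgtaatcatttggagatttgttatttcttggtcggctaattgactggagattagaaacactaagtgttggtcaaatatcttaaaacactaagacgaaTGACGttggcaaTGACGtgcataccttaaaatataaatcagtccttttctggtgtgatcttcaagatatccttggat
GSTU7: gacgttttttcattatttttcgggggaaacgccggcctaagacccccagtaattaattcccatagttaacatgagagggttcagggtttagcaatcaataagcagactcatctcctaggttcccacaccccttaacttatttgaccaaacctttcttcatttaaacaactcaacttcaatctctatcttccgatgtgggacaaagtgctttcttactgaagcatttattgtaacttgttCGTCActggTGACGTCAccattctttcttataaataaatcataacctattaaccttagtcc
GSTU17: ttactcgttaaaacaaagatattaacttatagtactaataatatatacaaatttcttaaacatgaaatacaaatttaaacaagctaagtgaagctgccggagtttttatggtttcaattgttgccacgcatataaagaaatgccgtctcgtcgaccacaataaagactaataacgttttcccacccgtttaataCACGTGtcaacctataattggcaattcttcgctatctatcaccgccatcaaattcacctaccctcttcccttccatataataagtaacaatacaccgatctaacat

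In GSTU1 the TGACG matches ended 73 and 61 bases before the gene start, 12 bases apart, and in GSTU7 3 matches lay within a stretch that ended 45 bases before it. GSTU17 had no TGACG but held CACGTG, the G-box, a site known to be bound by bZIP and bHLH factors. On either strand, TGACG was found upstream of 16 of the 32 genes (50.0%), against 21.3% of 27438 genes of the annotation taken in the same way. At least 2 matches were found in 4 genes, GSTU1, GSTU5, GSTU7 and GSTU9 (12.5%), against 3.99% of all genes. TGACG stood upstream of 7 of the 12 genes increased in *fer* (58.3%), of 9 of the 16 genes not called (56.2%) and of neither of the 2 that decreased, so its presence did not separate the increased genes from those not called. CACGTG was found in GSTU17, GSTU18 and GSTF6 (9.38%), against 7.09% of all genes, and the window of GSTU18 lies within the GSTU17 gene. The shorter letters TTGAC, the core of the W-box, which can share its bases with TGACG, were found in 23 genes (71.9%), against 50.4% of all genes. They stood upstream of all 12 increased genes, of both decreased genes and of 9 of the 16 not called. These matches describe letters in a window and are not evidence of binding.

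The mutated gene was checked first. FER (AT3G51550) had 5.95, 6.63 and 10.3 normalized reads in the *fer* libraries, against 264.6, 265.5 and 286.4 in WT, or 2.80% of the WT mean (log2 fold change -5.02 ± 0.22 SE, adjusted p = 7.2e-12, limma). The exact permutation test on its 6 values gave p = 0.1, two-sided, the smallest that 3 against 3 libraries can give. A normalized read is a read count scaled by the authors so that every library sums to between 4523902 and 4526129. Values are listed in the order of the table's columns, and a library is called column 1, 2 or 3 of its genotype, with no link between equal numbers. QuantSeq reads each transcript at its 3′ end, so these levels follow transcript number without a correction for length and can be set beside each other between genes. The depth of each single library is unknown. Over all genes, 14.6% passed an adjusted p of 0.05 in limma and are termed called, 10.0% as increased and 4.52% as decreased in *fer*, and the median log2 fold change was 0.10. That split of 2083 increased and 938 decreased genes became 1510 and 1460 under median of ratios scaling, where the median of all genes was 0.0031 and the tau and phi genes gave 12 increased and 3 decreased. Among the markers of rosette leaves RBCS1A, RCA and CAB3 decreased (log2 fold changes -0.31, -0.49 and -0.47) and LHCB2.1 had -0.21, and their summed level was 122494 to 131733 in *fer* and 156847 to 169300 in WT. Markers of other organs and cell types summed to 1168 to 1214 in *fer* and 1330 to 1366 in WT over the 6 of 9 in the table, with the root gene RHD6 and the flower genes AP1 and AP3 not among them, and 2 of the 6, ATML1 of the epidermis and the flower gene AG, decreased. AG was low, with 0.018 ± 0.017 normalized reads in *fer* and 3.21 ± 0.19 in WT (SD, n = 3 each). With *fer* set at 3 normalized reads, used below as the floor, WT was at least 1.07-fold higher, so this decrease may be slight. The mean was higher in *fer* for 2 of the 6, CASP1 of the root and FAMA of guard cells, and neither was called.

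Transcripts of 14 of the 30 tau and phi genes, or 46.7%, were called between *fer* and WT, against 14.6% of all genes. Of these, 12 were increased in *fer* (10.0% of all genes were) and 2 were decreased (4.52% of all genes were). An increase of at least 1 on the log2 scale was called for 11 of them, against 4.73% of all genes. The libraries of *fer* did not overlap those of WT in 17 of the 30 genes, against 31.3% of all genes. The mean was higher in *fer* for 22 genes, against 60% of all genes, and the median log2 fold change was 0.73, against 0.10 over all genes. In limma without the trend of variance on mean 9 of the 30 genes were called, and 1130 of all genes. Log2 fold changes ran from -0.58 in GSTU17 to 2.99 in GSTU8, and they are on the log2(value + 1) scale, which understates the change of low genes. The proportion of cell types in a leaf and the RNA made per cell cannot be told apart in such bulk samples.

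**Figure D1:**
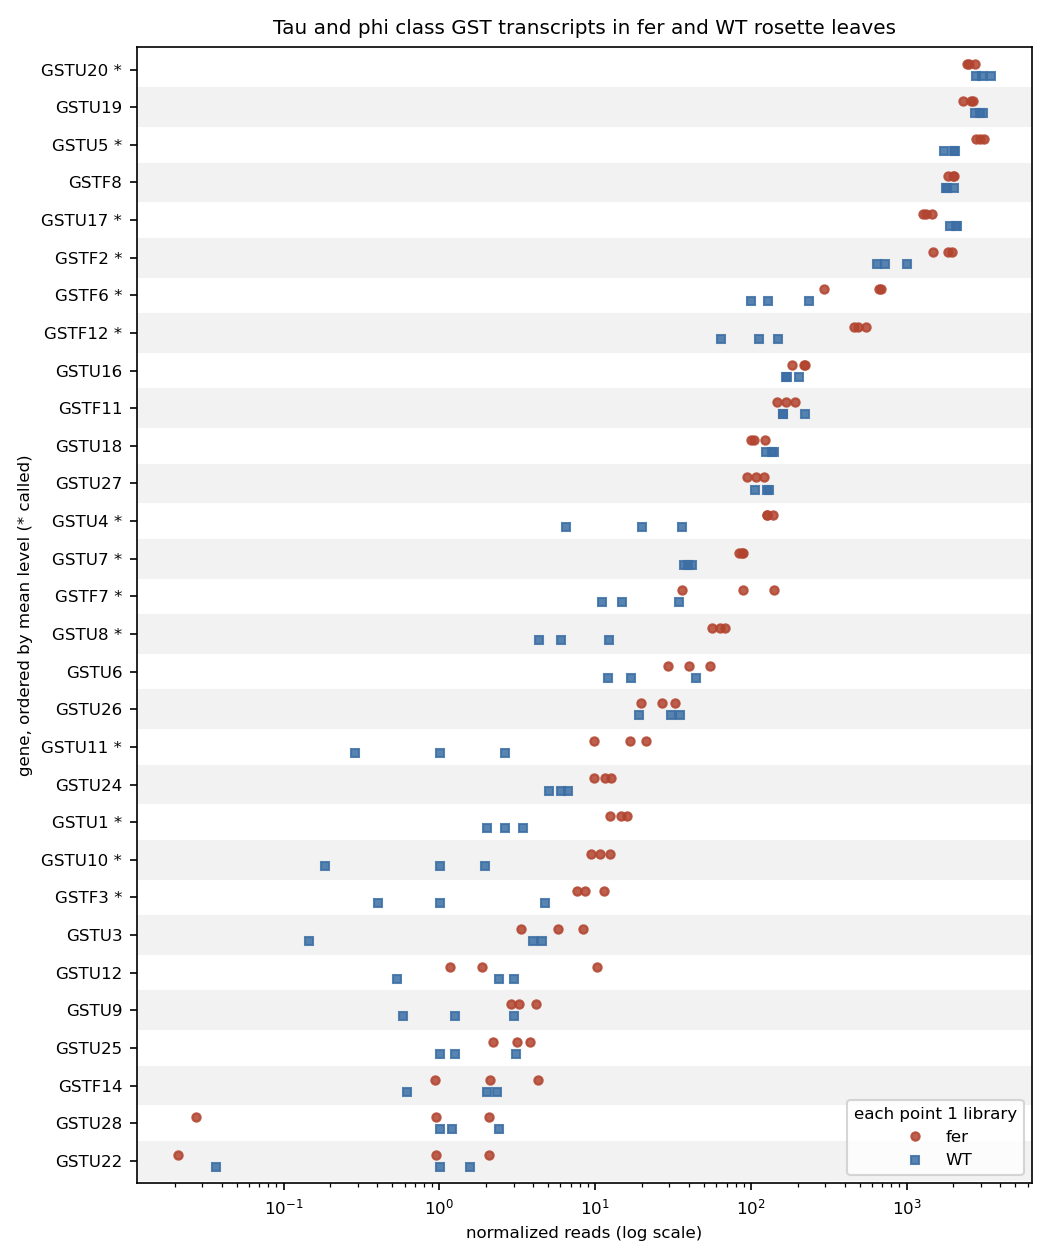
Normalized reads of the 30 genes in each library, on a log axis, with genes ordered by their mean and an asterisk at the 14 called in limma. Each circle is 1 *fer* library and each square 1 WT library. The increased genes GSTU4 and GSTU8 show all *fer* libraries far to the right of all WT libraries, whereas the abundant GSTF8 shows both genotypes together, between 1801 and 2021.

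In the phi class 5 of the 8 genes with values were called, or 62.5%, against 14.6% of all genes. All 5 were increased in *fer* (10.0% of all genes were), and the median log2 fold change of the class was 1.49. GSTF12 (AT5G17220), known as TRANSPARENT TESTA19, carries anthocyanins and proanthocyanidin precursors to the vacuole. It had 489.8, 462 and 547 normalized reads in *fer*, against 150.3, 114 and 64.3 in WT (log2 fold change 2.26 ± 0.20 SE, adjusted p = 1.3e-07, limma). The lowest *fer* library was thus well above the highest WT library, and this was the smallest adjusted p of the 30 genes.

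GSTF2 (AT4G02520) encodes a phi enzyme that binds small defence compounds such as camalexin, and it was the most abundant of the increased phi genes. Its levels were 1952, 1472 and 1834 in *fer* and 1003, 728 and 647 in WT (log2 fold change 1.16 ± 0.13 SE, adjusted p = 2.8e-06, limma). GSTF3 (AT2G02930) is its near-identical copy, with 94.5% identity of the coding sequences but 33.3% over the last 300 bases of the annotated transcripts. Reads of the 3′ end fall there if these annotated ends are the ones used, which was not tested. GSTF3 was low, with 8.65, 11.5 and 7.68 in *fer* and 4.77, 1.014 and 0.41 in WT (log2 fold change 2.00 ± 0.57 SE, adjusted p = 0.022, limma). The call of GSTF3 was lost in 8 of 13 alternative settings, 5 of which left out a single library (any but WT column 1) and gave adjusted p-values of 0.067 to 0.099 in limma. GSTF2 overlaps AT4G02510 on the opposite strand by 1442 bases, and that gene had 1279.7 in *fer* and 1502 in WT (log2 fold change -0.23, adjusted p = 0.096, limma). Whether the counting used strand is not given in the sources used here.

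GSTF6 (AT1G02930) and GSTF7 (AT1G02920) are neighbours on chromosome 1, between 658578 and 662475 of TAIR10.1, with 94.3% identity of their coding sequences and 64.5% over the last 300 bases. GSTF6 is linked to the synthesis of camalexin, the main phytoalexin of Arabidopsis. It had 682, 296 and 669.7 normalized reads in *fer*, against 235, 129 and 100.2 in WT (log2 fold change 1.82 ± 0.27 SE, adjusted p = 8.4e-05, limma). GSTF7 had 141, 36.1 and 89.1 in *fer* and 34.6, 11.1 and 14.996 in WT (log2 fold change 2.04 ± 0.41 SE, adjusted p = 0.0017, limma). Both genes were lowest in *fer* column 2 and highest in WT column 1 within their genotype, and in GSTF7 these libraries lay close together. Their calls were kept when any single library was left out but not in limma without the trend of variance on mean, which gave adjusted p-values of 0.080 and 0.12. In the last 500 bases of the GSTF6 transcript 4 of 451 windows of 50 bases (0.887%) also occurred elsewhere in the genome, in GSTF7. The other 29 genes had no such window.

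The remaining phi genes were not called. GSTF8 (AT2G47730), whose promoter is a much used reporter of early stress, was abundant at 1859, 2021 and 1980.03 in *fer* and 2014, 1815 and 1801 in WT. The genotypes overlapped, and the 95% interval of the log2 fold change was -0.10 to 0.22 around 0.06. GSTF11 (AT3G03190) had 147.9, 168 and 191 in *fer* and 224, 162 and 162 in WT, with an interval of -0.40 to 0.20, and GSTF14 (AT1G49860) reached at most 4.28.

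The tau class moved in both directions, with 9 of its 22 genes called, or 40.9%, against 14.6% of all genes. Of these 9 genes, 7 were increased and 2 decreased in *fer*, and the median log2 fold change of the class was 0.61. The increased genes were mostly scarce in WT. GSTU8 (AT3G09270) had 56.5, 63.1 and 68.2 normalized reads in *fer* and 12.4, 6.06 and 4.37 in WT (log2 fold change 2.99 ± 0.34 SE, adjusted p = 3.6e-06, limma). GSTU4 (AT2G29460) had 128, 127 and 139 in *fer* and 35.97, 20.1 and 6.46 in WT (log2 fold change 2.87 ± 0.37 SE, adjusted p = 1.7e-05, limma). In both genes the *fer* libraries were close to each other while the WT libraries spread, with WT column 1 the highest.

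GSTU10 (AT1G74590) and GSTU11 (AT1G69930) were at the floor in WT, taken as at most 3 normalized reads in each library. GSTU10 had 10.8, 9.44 and 12.5 in *fer* and 0.19, 1.014 and 1.96 in WT, which makes it at least 3.64-fold higher in *fer* when WT is set at 3 (adjusted p = 0.0019, limma). GSTU11 had 9.82, 16.7 and 21.3 in *fer* and 2.64, 1.02 and 0.29 in WT, at least 5.31-fold higher in *fer* (adjusted p = 0.00065, limma). GSTU12 (AT1G69920), the neighbour of GSTU11 on chromosome 1, was not called, with 1.17, 10.4 and 1.89 in *fer* and 2.42, 3.02 and 0.54 in WT.

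GSTU1 (AT2G29490) to GSTU7 (AT2G29420) form a run of 7 genes on the minus strand of chromosome 2, from 12617936 to 12632538 of TAIR10.1. Of the 6 with values, 4 were increased in *fer* (10.0% of all genes were), and the median log2 fold change of the 6 was 1.07. GSTU1 had 16.2, 14.7 and 12.5 in *fer* and 2.64, 2.02 and 3.42 in WT (log2 fold change 2.07 ± 0.44 SE, adjusted p = 0.0029, limma). GSTU7 had 84.1, 88.6 and 88.1 in *fer* and 39.3, 37.2 and 42.2 in WT (log2 fold change 1.12 ± 0.18 SE, adjusted p = 0.00020, limma). These 2 genes carry the TGACG pairs and triplet printed above, and their libraries lay close together within each genotype. GSTU4, also of this run, has no TGACG in its window and had a log2 fold change above both, a difference that was not tested.

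GSTU5 (AT2G29450) was the only abundant tau gene to increase. It had 2791, 3157 and 2958 normalized reads in *fer* and 2005, 1734 and 2035 in WT (log2 fold change 0.63 ± 0.08 SE, adjusted p = 1.7e-05, limma). Without the trend its adjusted p in limma was 0.053. GSTU6 (AT2G29440), next to it, had 29.6, 54.7 and 40.2 in *fer* and 44.4, 17.1 and 12.2 in WT and was not called (log2 fold change 0.90, adjusted p = 0.12, limma). Left without WT column 1 it was called, at 1.42 (adjusted p = 0.0096, limma). GSTU3 (AT2G29470), the other gene of the run with values, was low in every library, between 0.15 and 8.36, and was not called.

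The 2 genes that decreased were abundant. GSTU17 (AT1G10370), also named ERD9 after its early response to dehydration, had 1459, 1275 and 1338 normalized reads in *fer*, against 1912, 2124 and 2069 in WT (log2 fold change -0.58 ± 0.08 SE, adjusted p = 3.0e-05, limma). All *fer* libraries were below all WT libraries. Its call was kept without any single library, and the adjusted p was 0.055 in limma without the trend. GSTU18 (AT1G10360) overlaps the end of GSTU17 by 71 bases on the same strand. It had 105, 124 and 100.3 in *fer* and 126, 141 and 136 in WT, which did not overlap, but it was not called (log2 fold change -0.29, adjusted p = 0.18, limma).

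GSTU20 (AT1G78370), which binds the jasmonate-conjugating enzyme JAR1 in light signalling, was the most abundant of the 30 genes by its mean over all 6 libraries and in WT, while GSTU5 was above it in *fer*. It had 2454, 2739 and 2528 in *fer* and 3503, 3036 and 2775 in WT (log2 fold change -0.27 ± 0.08 SE, adjusted p = 0.042, limma). Its highest *fer* library was just under its lowest WT library. The call depended on single libraries: it was lost in 8 of 13 settings, among them those without WT column 1, WT column 2, *fer* column 1 or *fer* column 3 (adjusted p 0.12 to 0.21, limma). Without WT column 1 the log2 fold change was -0.18. GSTU19 (AT1G78380), a herbicide-conjugating enzyme that lies beside it on chromosome 1, had 2692, 2293 and 2581 in *fer* and 3109, 2969 and 2761 in WT and was not called (log2 fold change -0.23, adjusted p = 0.063, limma). It was called as decreased under median of ratios scaling, at -0.33 (adjusted p = 0.0086, limma), and without WT column 3, at -0.27 (adjusted p = 0.045, limma).

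**Figure D2:**
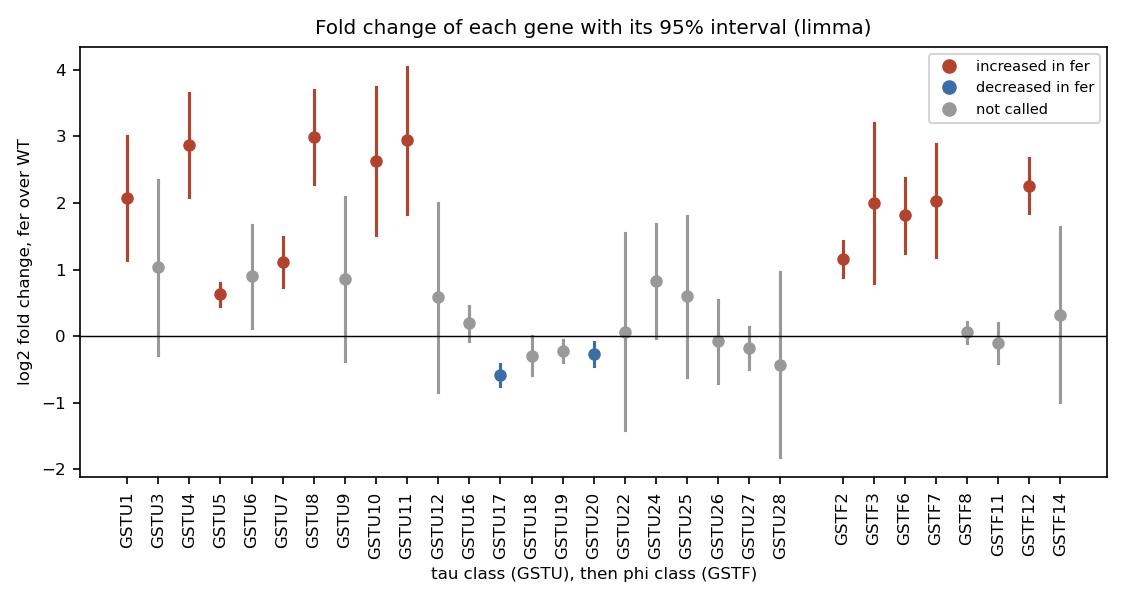
Log2 fold change of *fer* over WT for each of the 30 genes, with its 95% interval from limma, tau genes at the left and phi genes at the right. Red points mark the 12 increased genes, blue points the 2 decreased genes GSTU17 and GSTU20, and grey points the 16 that were not called, whose intervals are wide where the gene is scarce.

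Of the 16 genes not called, 8 had a mean under 10 normalized reads (GSTU3, GSTU9 (AT5G62480), GSTU12, GSTU22 (AT1G78340), GSTU24 (AT1G17170), GSTU25 (AT1G17180), GSTU28 (AT1G53680) and GSTF14), and their 95% intervals reached from -1.82 to 2.35 on the log2 scale. GSTU22 and GSTU28 were at the floor in both genotypes. GSTU24 and GSTU25, enzymes known for conjugating the explosive trinitrotoluene, reached at most 12.6 and 3.85 normalized reads. In GSTU24 the genotypes did not overlap, with 9.82, 12.6 and 11.5 in *fer* and 6.04, 5.04 and 6.69 in WT, yet it was not called (log2 fold change 0.83, adjusted p = 0.20, limma) except where limma was run with no trend, which gave an adjusted p of 0.042. The 8 genes with a mean of 10 or more (GSTU6, GSTU16 (AT1G59700), GSTU18, GSTU19, GSTU26 (AT1G17190), GSTU27 (AT3G43800), GSTF8 and GSTF11) had log2 fold changes of -0.29 to 0.90. At these values a difference in the scarce genes was not detectable unless it was large.

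Increases were found at every level, while the decreases were found among the most abundant genes. Of the 6 genes with a mean of at least 1000 normalized reads, 2 increased and 2 decreased, and the median log2 fold change was -0.08. Between 100 and 1000, 2 of 6 genes increased, with a median of 0.05. Between 10 and 100, 4 of 6 increased, with a median of 1.58, and below 10, 4 of 12 increased, with a median of 0.84. Over all genes 10.0% increased and 4.52% decreased, and the shares of all genes at each level were not computed. No listed gene with a mean under 1000 was called as decreased. The 2 decreases called were small, -0.58 in GSTU17 and -0.27 in GSTU20, each with an SE of 0.08. In listed genes with a mean under 10 the SE ran from 0.41 in GSTU24 to 0.71 in GSTU22. Decreases of that small size were unlikely to be called there.

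The sum over the 30 genes was 15492, 14817 and 15568 normalized reads in *fer* and 14809.8, 13367 and 13021 in WT, a ratio of 1.11, or 0.327% to 0.344% of all normalized reads in *fer* and 0.288% to 0.327% in WT. On the authors' scaling the genotypes lay next to each other without overlap, the lowest *fer* library being close to WT column 1. Median of ratios scaling divides the *fer* columns by 1.039, 1.062 and 1.057 and the WT columns by 0.9844, 0.9767 and 0.9802. That lowers each *fer* sum and raises each WT sum, after which the genotypes overlap, and every ratio given here falls. The tau genes summed to 10268 ± 73.0 in *fer* and 10592 ± 483 in WT, and the phi genes to 5024 ± 482 in *fer* and 3140.1 ± 466 in WT (SD, n = 3 each), ratios of 0.97 and 1.60. The 6 most abundant genes, GSTU20, GSTU19, GSTU5, GSTF8, GSTU17 and GSTF2, made up most of the total and had a ratio of 1.04, whereas the other 24 genes summed to 2164 ± 265 in *fer* and 1052 ± 183 in WT, a ratio of 2.06. These sums were not tested.

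**Figure D3:**
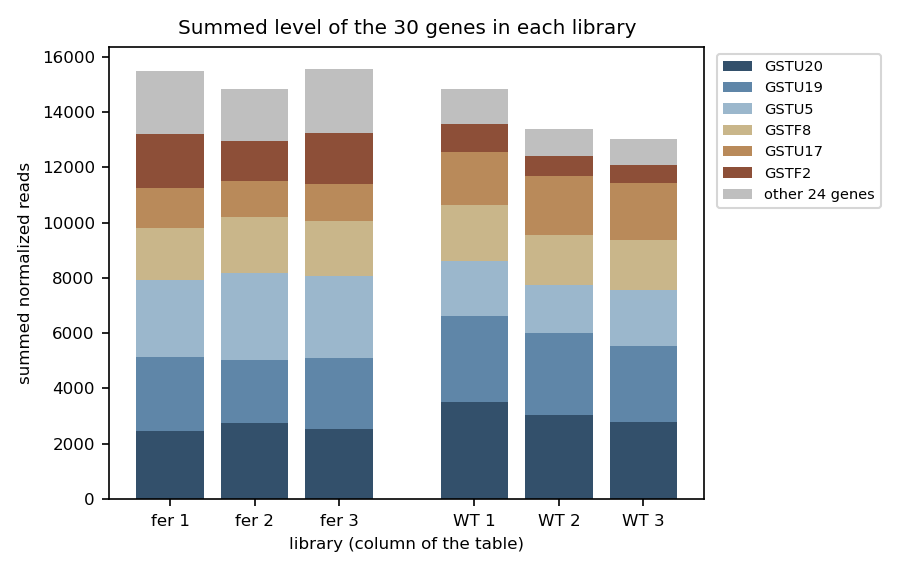
Summed normalized reads of the 30 genes in each library, *fer* at the left and WT at the right, with the 6 most abundant genes as coloured segments and the other 24 in grey. The bars of the *fer* libraries reach 14817 to 15568 and those of WT 13021 to 14809.8, and the segments of GSTF2 and of the other 24 genes are taller in every *fer* library.

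Within each genotype, the order of the libraries was counted in the increased genes alone. Among the 12 increased genes, WT column 1 was the highest WT library in 8 (GSTU4, GSTU8, GSTU11, GSTF2, GSTF3, GSTF6, GSTF7 and GSTF12), and *fer* column 2 was the lowest *fer* library in 6 (GSTU4, GSTU10, GSTF2, GSTF6, GSTF7 and GSTF12). Without WT column 1, 13 of the 30 genes were increased. Of the 12 increases 11 were kept whichever library was left out, GSTF3 being the exception, and 8 were kept in all 13 alternative settings (GSTU1, GSTU4, GSTU7, GSTU8, GSTU10, GSTU11, GSTF2 and GSTF12). Whether these libraries differ from the others across all genes was not tested.

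Further overlaps bear on increased genes. GSTU7 overlaps AT2G08340 by 636 bases on the opposite strand, a gene with no values here. It also overlaps AT2G29410 by 52 bases on the opposite strand, and that gene had 7.83 in *fer* and 1.68 in WT (log2 fold change 1.86, adjusted p = 0.034, limma). GSTF12 overlaps AT5G17230 by 108 bases on the opposite strand, and that gene had 116 in *fer* and 150.4 in WT (log2 fold change -0.43, adjusted p = 0.14, limma). GSTU10 overlaps AT1G74580 and AT1G74600 by 279 and 21 bases, and neither was called. Overlap with another annotated gene was found for 9 of the 30 genes in all.

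Tau and phi genes outside the list numbered 9, of which 6 were in the table, with 3 increased and 1 decreased in *fer*. These and the following counts of other lists stand against 10.0% of all genes increased and 4.52% decreased, and their medians against 0.10. GSTF5 (AT1G02940) was increased, with 9.79 ± 5.90 in *fer* and 1.52 ± 1.34 in WT (SD, n = 3 each), at least 3.26-fold higher against the floor, and its call was lost in limma when WT column 3, *fer* column 1 or *fer* column 3 was left out (adjusted p 0.058 to 0.14). The abundant GSTF9 (AT2G30860) and GSTF10 (AT2G30870) had log2 fold changes of 0.56 and 0.68 (adjusted p = 0.00021 and 1.9e-05, limma), and without the trend these adjusted p-values were 0.099 and 0.052. GSTF9 alone had 12173 ± 430 in *fer* and 8342 ± 1230 in WT, a level above that of any of the 30 listed genes. GSTF4 (AT1G02950) was decreased, with 39.2 ± 6.09 in *fer* and 80.3 ± 9.93 in WT (log2 fold change -1.02, adjusted p = 0.0013, limma).

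The other GST classes had 5 of 12 genes called, 4 increased and 1 decreased in *fer*, with a median log2 fold change of 0.29. DHAR1 (AT1G19570), a dehydroascorbate reductase that uses glutathione to regenerate ascorbate, rose to 12037 ± 526 normalized reads in *fer*, against 2635 ± 763 in WT (log2 fold change 2.23 ± 0.13 SE, adjusted p = 2.6e-10, limma). GSTL1 (AT5G02780) of the lambda class was at least 2.05-fold higher in *fer*, with WT at the floor, and GSTZ1 (AT2G02390) had a log2 fold change of 0.95 (adjusted p = 0.010 and 0.0029, limma). The call of GSTL1 was lost without *fer* column 1 or *fer* column 3 (adjusted p 0.050 and 0.052, limma). MGST (AT1G65820), a membrane-bound enzyme listed here by its GST activity, was also increased, by 0.74. DHAR3 (AT5G16710), the chloroplast dehydroascorbate reductase, was the 1 that decreased, and is named after its value was seen, at -0.53 (adjusted p = 0.0018, limma).

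Genes that make and turn over glutathione showed 3 increases among 11, or 27.3% called against 14.6% of all genes, with a median log2 fold change of 0.21, against 0.10 over all genes. GGT4 (AT4G29210), which opens the breakdown of conjugates in the vacuole, had 224 ± 14.4 in *fer* and 90.6 ± 18.03 in WT (log2 fold change 1.31 ± 0.15 SE, adjusted p = 2.7e-06, limma). GSH2 (AT5G27380), glutathione synthetase, had 0.77 and GGCT2;3 (AT1G44790), a γ-glutamyl cyclotransferase, had 0.69 (adjusted p = 0.00069 and 0.0062, limma). Of 5 ABCC transporters 2 were increased, ABCC3 (AT3G13080) at 0.71 and ABCC2 (AT2G34660) at 0.65, with a median of 0.37 over the list (adjusted p = 0.026 and 0.0022, limma). The call of ABCC3 was lost under both other scalings and without WT column 2, WT column 3, *fer* column 2 or *fer* column 3 (adjusted p 0.056 to 0.13, limma), and that of GGCT2;3 without WT column 2 (adjusted p = 0.055, limma).

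**Figure D4:**
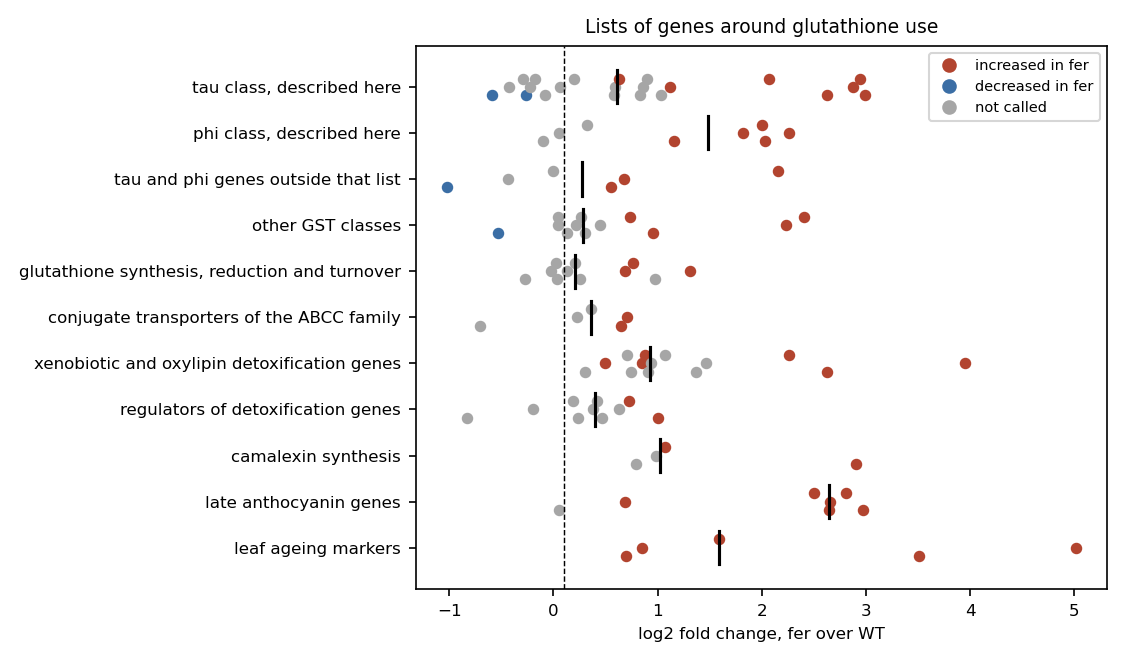
Log2 fold change of *fer* over WT for every gene in the table from each list, with the list's median as a black bar and the median of all genes, 0.10, as a dashed line. Red points were increased, blue points decreased and grey points not called in limma. The late anthocyanin genes sit furthest right as a group, with a median of 2.65, against 1.49 for the phi genes and 0.61 for the tau genes.

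The genes that share a product with single GSTs were set beside them. Beside GSTF12, 6 of 7 late anthocyanin genes were increased in *fer*, with a median log2 fold change of 2.65. LDOX (AT4G22880), an oxygenase that makes anthocyanidins, had 1310.1 ± 162 in *fer* and 217 ± 83.3 in WT (SD, n = 3 each). The glycosyltransferases UF3GT (AT5G54060) and 5GT (AT4G14090) had log2 fold changes of 2.97 and 2.65 and the regulator TT8 (AT4G09820) had 2.81 (adjusted p 3.1e-09 to 3.5e-05, limma), while the 1 gene not called, named after its value was seen, was the regulator MYB90 (AT1G66390). Beside GSTF6, 2 of 4 camalexin genes were increased, CYP71A12 (AT2G30750) at 2.91 and GGP1 (AT4G30530), a peptidase that acts on glutathione conjugates, at 1.07 (adjusted p = 2.6e-05 and 2.1e-08, limma), with a median of 1.03. The others, CYP71A13 (AT2G30770) at 0.80 and CYP71B15 (AT3G26830) at 0.98, were not called (adjusted p = 0.27 and 0.22, limma). They are named after their values were seen.

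Markers of leaf ageing were also set beside the GST genes. All 5 were increased in *fer*, with log2 fold changes of 0.70 to 5.01, and their summed level was 572 to 640.2 in *fer* and 172 to 200.2 in WT. SAG12 (AT5G45890) was at the floor in WT and at least 12.1-fold higher in *fer*, and SAG13 (AT2G29350) had 257 ± 24.9 in *fer* and 22.6 ± 8.86 in WT. Their part in the changes of the GST genes, and that of the lower level of rosette leaf markers, was not tested.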

How the data were processed

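Total RNA of rosette leaves was made into QuantSeq 3′ libraries, each sequenced in 2 runs that were then merged (single-end, 50 bases). Per the labels and methods, the authors aligned reads to TAIR10 with STAR, counted them with HTSeq (intersection-nonempty) and used edgeR; versions and strand setting are not given in the sources used here. The deposited values are a signal, reads normalized by TMM by the authors and brought to a common library size. A deposited column of log2 fold changes is the authors' own comparison and was not used. Column names give the genotype but no replicate number, so columns are called 1, 2 and 3 within a genotype and pair nothing.

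Low values within 0.1 of a whole multiple of 1 step made up 27.6% to 100% of low values per library, so whole reads were not recovered, count tests were not run and no counting interval is given. The comparison used limma (3.58.1; R 4.3.3; eBayes with trend, two-sided) on log2(value + 1), adjusted by Benjamini-Hochberg for the whole table of 20754 genes. A gene counted as called below an adjusted p of 0.05. The fit was tried on simulated data in which no gene under 10 normalized reads in WT was changed. That trial therefore does not cover calls of such scarce genes. Upstream windows, overlaps and 3′ windows were read from RefSeq TAIR10.1 with Python 3.11.15, joined by locus identifier, which matched for all 32 genes.

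All listed genes in the table are accounted for. Values per library are given for called genes with an absolute log2 fold change of at least 1, for decreased genes, for the 5 most abundant and for GSTF2, GSTF3, GSTF6 and GSTF7; those of other genes were added where a neighbour or an overlap is described. From every other list up to 4 called genes with the largest change are named. The genes and lists were chosen with earlier results of these data known. Alternatives were a pseudocount of 0.1, dropping genes with a mean below 5, median of ratios and quantile scaling, no trend, stricter thresholds and leaving out each library.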

Additional observations from a re-analysis of the deposited data

How the results depend on the processing

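The 30 genes gave 14 calls, and 9 in limma without the trend of variance on mean. Increases numbered 9 to 13 over all settings, and the median log2 fold change of the 30 genes was 0.54 under quantile normalization and 0.61 to 0.90 over the fits that left out a library. Decreases, 2 at first, were 1 with a pseudocount of 0.1, 1 at an adjusted p under 0.01, 0 without the trend, 0 at a log2 fold change of at least 1 in size, and 1 to 3 with a library left out. All genes called, 3021 at first, were 1130 without the trend, 1682 at an adjusted p under 0.01, 1144 at a log2 fold change of at least 1, and 1907 (without *fer* column 3) to 2503 with a library left out, 1973 without WT column 2. Increased genes over the whole table were 1353 under quantile normalization, 908 without the trend, 1190 at an adjusted p under 0.01, 981 at a log2 fold change of at least 1, and 1287 (without *fer* column 3) to 1822 with a library left out. Decreased genes were 1460 under median of ratios scaling, 1450 under quantile normalization, 222 without the trend, 492 at an adjusted p under 0.01, 163 at a log2 fold change of at least 1, and 537 (without WT column 2) to 821 with a library left out, 620 without *fer* column 3. The median of all genes turned to -0.043 under quantile normalization. Calls summed over the 8 other lists, 30 at first, were 17 without the trend, 16 at a log2 fold change of at least 1, and 24 to 32 with a library left out. FER stayed between -5.23 and -4.88 on the log2 scale. Median of ratios scaling divided the *fer* libraries by 1.039 to 1.062 and the WT libraries by 0.9767 to 0.9844, which by construction lowers *fer* relative to WT. The stricter thresholds remove calls by construction. Apart from these settings, the cause of the shifts was not tested.

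No paired analysis was possible because nothing in the column names tells which replicate each library is. With 3 libraries a genotype, unknown depth and pseudocounted values, changes in genes under 10 normalized reads are the least certain, and a fit that leaves out a library has 2 in that genotype.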

Other observations

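Genes for the handling of xenobiotics and oxylipins were measured as a further list. Of 14 in the table, 6 were increased in *fer*, against 10.0% of all genes, with a median log2 fold change of 0.93 (0.90 with genes at the floor set at their bound), against 0.10 over all genes, and the mean was higher in *fer* for all 14, against 60% of all genes. CYP81D11 (AT3G28740), a cytochrome P450 induced by xenobiotics and oxylipins, had 67.2 ± 15.9 normalized reads in *fer* and 4.34 ± 4.15 in WT (log2 fold change 3.95 ± 0.45 SE, adjusted p = 4.3e-06, limma). The glucosyltransferase UGT74E2 (AT1G05680) was at the floor in WT and at least 3.64-fold higher in *fer* (adjusted p = 0.0020, limma). The transporters ABCG40 (AT1G15520) and ABCB4 (AT2G47000) had log2 fold changes of 2.26 and 0.88 (adjusted p = 0.012 and 0.030, limma). The call of ABCG40 was lost without WT column 1, WT column 2, *fer* column 1 or *fer* column 3 (adjusted p 0.053 to 0.081, limma). That of ABCB4 was lost under both other scalings and without WT column 2 or any single *fer* column (adjusted p 0.055 to 0.13, limma).

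Among 10 regulators of such genes, 2 were increased in *fer*, with a median log2 fold change of 0.40. The 20.0% called is near the 14.6% of all genes and says little about the list. ATAF1 (AT1G01720), a NAC factor, had 89.0 ± 11.5 in *fer* and 43.6 ± 2.39 in WT (log2 fold change 1.006, adjusted p = 0.00064, limma). TGA5 (AT5G06960), which binds TGACG, had 93.4 ± 5.17 in *fer* and 56.9 ± 12.03 in WT (log2 fold change 0.72, adjusted p = 0.0096, limma), and its call was lost without WT column 2 or *fer* column 3 (adjusted p 0.059 in each, limma).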
